A study of Mus musculus with 9 samples.

Results

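The livers of mice given the second lnc-Helf shRNA under chronic CCl4 treatment were compared with those of mice given the control virus under the same treatment, over all genes that passed a filter on low counts. The comparison used 6 of the 9 livers sequenced, 3 of the NC + CCl4 group and 3 of the lnc-Helf-sh2# + CCl4 group, with 1 library per liver, and 13059 of the 17305 genes in the table were tested. All mice were male, of the Balb/c strain, 8 weeks old and treated with CCl4 for 8 weeks, and each received an AAV8 virus through the tail vein that carried either a negative control or shRNA2# against lnc-Helf. The labels place the virus 4 weeks after the first CCl4 injection, while the study's methods give an earlier time and a lower dose. Livers without CCl4 and livers without virus were not analysed here, so every difference lies between injured livers that had received a virus. AAV8 enters hepatocytes far more readily than other liver cells, and the values come from whole liver, in which fewer cells of a type and less RNA per cell cannot be told apart.

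CCl4 is turned into a radical by cytochrome P450 enzymes of the hepatocytes around the central vein, which die after each dose. Kupffer cells, the resident macrophages, then recruit monocytes from the blood, and stellate cells deposit collagen and other matrix. Hepatocytes make most plasma proteins, so their endoplasmic reticulum (ER) carries a heavy load of folding and export, and an excess of unfolded protein switches on chaperone and export genes through the factors XBP1, ATF6 and ATF4.

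Single-end reads of 50 bases had been obtained, and the 6 libraries held 14265875 to 16816431 estimated counts (median 16153991), of which Alb, the albumin gene, took 7.49 to 12.4%. All 12 hepatocyte markers listed were detected. Of exocrine pancreas markers, 2 of 4 were at 0 in all 6 livers, and of adipocyte markers 2 of 5 were at 0 in the control livers and 3 of 5 in the shRNA2# livers. No 2 libraries of a group agreed within sampling noise. Levels are given as CPM, read counts relative to the TMM-scaled total of the library, and are not corrected for gene length. SE is the standard error of a log2 fold change, and adjusted p comes from edgeR's quasi-likelihood test over all genes tested. An exact two-sided permutation test of 3 livers against 3 cannot give a p below 0.1, so single genes rest on the fit across all genes.

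lnc-Helf lies inside Fmo2, a flavin-containing monooxygenase gene, on the minus strand of chromosome 1, and is annotated as a retained-intron transcript of 680 bases in 2 exons. The shRNA oligo is shown with its sense arm in capitals, and the stretch of lnc-Helf that it targets with the matching 19 bases in capitals, because these letters define what the virus was built to remove.
shRNA2# oligo, forward strand: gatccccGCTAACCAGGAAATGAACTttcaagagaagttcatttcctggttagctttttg
lnc-Helf around the target: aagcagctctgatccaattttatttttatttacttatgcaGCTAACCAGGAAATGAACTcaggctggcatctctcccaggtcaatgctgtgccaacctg
The stretch spans chr1:162897994-162898092 (GRCm38) and the target chr1:162898034-162898052, in exon 2 and at bases 309 to 327 of the transcript. None of the 19 target bases lies in an exon of a coding Fmo2 transcript, although 179 of the 680 bases of lnc-Helf do. Among all annotated mouse transcripts (GENCODE M21), the sense arm was found in 1, lnc-Helf itself, and the antisense arm in 0. The table holds a single value for Fmo2 and none for lnc-Helf alone. Fmo2 was measured at 227, 202 and 265 CPM in the control livers and at 174, 142 and 88.2 CPM in the shRNA2# livers. Every shRNA2# liver lay below every control liver, with a log2 fold change of -0.78 (SE 0.22, adjusted p = 0.0528), which misses the threshold of 0.05.

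Lists of myeloid genes had many members that fell and hardly any that rose, and lists of protein folding and export had many members that rose and 0 that fell. Of the 13059 genes tested, 289 (2.21%) passed the study's threshold of a fold change above 2 and an adjusted p under 0.05, of which 75 (0.574%) were higher and 214 (1.64%) lower with shRNA2#. At the adjusted p alone, 615 genes (4.71%) rose and 508 (3.89%) fell, and this call is the one used for single genes and list members. All 3 shRNA2# livers lay below all 3 control livers for 16.1% of genes and above them for 16.8%. Of the 289 genes, 84 belong to at least 1 of the 68 gene lists described here, and 205 belong to none.

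The calls lie close to the threshold and depend on single livers. The smallest adjusted p over all genes was 0.0193. Without NC + CCl4 liver 1 or liver 3, or without lnc-Helf-sh2# + CCl4 liver 2, edgeR left 0 genes past an adjusted p of 0.05, while 625, 681 and 643 genes still had an unadjusted p under 0.05 with a fold change above 2. Without lnc-Helf-sh2# + CCl4 liver 1 the number called was 484, without its liver 3 it was 113, and without NC + CCl4 liver 2 it was 206. With DESeq2 524 genes were called over all livers. All 167 genes named by the rule given below that passed in edgeR passed in DESeq2 as well. The log2 fold changes of these 167 genes kept their sign whichever of the 6 livers was left out. Since the 167 are by definition genes that passed in these same livers, both results were largely fixed in advance and lend the calls no support. With only the 6 compared livers in the fit, 198 genes were called, and 67 of the named genes that had passed no longer did. At the adjusted p alone, 228 of the 12900 genes in that fit rose and 272 fell. Livers of the lnc-Helf-sh1# + CCl4 group enter the low-count filter, the scaling and the estimate of spread. They moved the number called from 68 without their liver 2 to 413 without their liver 3. The p-values measure the spread between the sequenced livers, which may be technical in part.

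**Figure D1:**
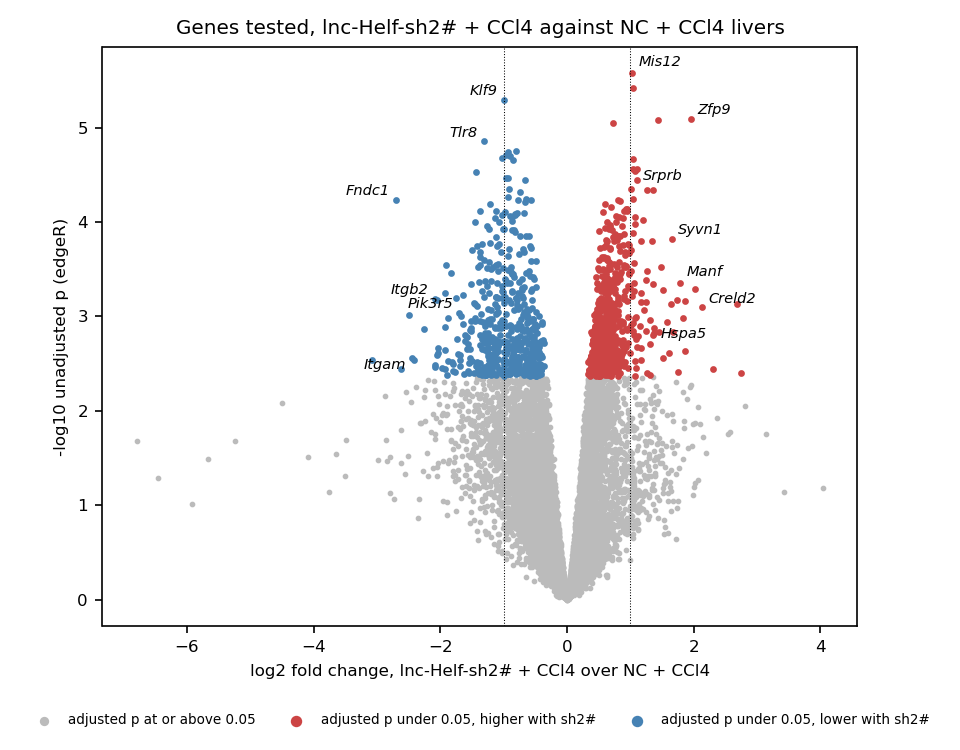
Log2 fold change (x axis) and -log10 of the unadjusted edgeR p-value (y axis) of the 13059 genes tested, with genes past an adjusted p of 0.05 in red (615 higher with shRNA2#) and blue (508 lower). Dotted lines mark a log2 fold change of 1 in each direction, and Mis12 on the higher and Klf9 on the lower side have the smallest p of their directions.

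ER chaperone genes stood higher with shRNA2#. Hspa5 encodes BiP, the main chaperone of the ER lumen. It was measured at 455, 754 and 378 CPM in the control livers and at 902, 1416 and 1798 CPM in the shRNA2# livers. The groups did not overlap, although control liver 2 came close to shRNA2# liver 1, and Hspa5 rose with a log2 fold change of 1.38 (SE 0.31, adjusted p = 0.0367). Manf, a secreted factor released from a stressed ER, was measured at 65.4, 105 and 42.9 CPM against 146, 292 and 296 CPM and rose with a log2 fold change of 1.78 (SE 0.35, adjusted p = 0.0268). Creld2, an ER disulfide isomerase, was measured at 19.7, 36.2 and 14.5 against 44.1, 126 and 138 CPM and rose with a log2 fold change of 2.13 (SE 0.45, adjusted p = 0.0322). In all 3 genes, control liver 2 was the highest control and shRNA2# liver 1 the lowest of its group.

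Members of the ER-associated degradation and co-chaperone machinery moved the same way. Syvn1, the ubiquitin ligase HRD1 that marks misfolded ER proteins for degradation, was measured at 43.97, 53.4 and 44.1 against 82, 200.4 and 164 CPM and rose with a log2 fold change of 1.66 (SE 0.28, adjusted p = 0.0212). For Dnajb9, a co-chaperone of BiP, the levels were 47.9, 53.7 and 51.4 against 113, 102 and 152 CPM, with a log2 fold change of 1.26 (SE 0.24, adjusted p = 0.0253). Sdf2l1 rose by 1.86, Hyou1, a large ER chaperone, by 1.62, and Fkbp2, a prolyl isomerase, by 0.62 on the log2 scale (adjusted p = 0.0309, 0.043 and 0.0268). Xbp1, which encodes a transcription factor of the unfolded protein response, rose from 142, 129 and 114 to 181, 176 and 194 CPM, with a log2 fold change of 0.51 (SE 0.12, adjusted p = 0.0367). P4hb, protein disulfide isomerase, had the highest level per length of the list, a mean of 425 FPKM in control and 582 FPKM in shRNA2# livers, and its log2 fold change was 0.63 at an adjusted p of 0.0509.

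In the whole list of unfolded protein response and ER chaperone genes, 17 of 42 members tested rose and 0 fell, beside 4.71% and 3.89% of all genes. Its median log2 fold change was 0.62 against 0.005 over all genes. The mean log2 level of the list relative to the control mean was 0.42, 0.69 and 0.98 in shRNA2# livers 1, 2 and 3 and -0.09, 0.32 and -0.23 in the control livers. shRNA2# liver 1 was thus only a little above control liver 2. The median lay between 0.46 and 0.73 whichever liver was left out, but without shRNA2# liver 3 only 1 member passed, and without shRNA2# liver 1 it was 23. With only the 6 compared livers in the fit, 7 members rose. In the list of ATF4 and the amino acid response, 1 of 31 members rose, Atf4 itself (72.2, 64.98 and 70.8 against 93.01, 139 and 96.2 CPM, 0.66 on the log2 scale), and its median was 0.10. Ddit3, which encodes CHOP, had a log2 fold change of 1.45 at an adjusted p of 0.0575, and Asns, which makes asparagine, of 0.33 at an adjusted p of 0.611. Ddit3 did not overlap between the groups and Asns did.

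**Figure D2:**
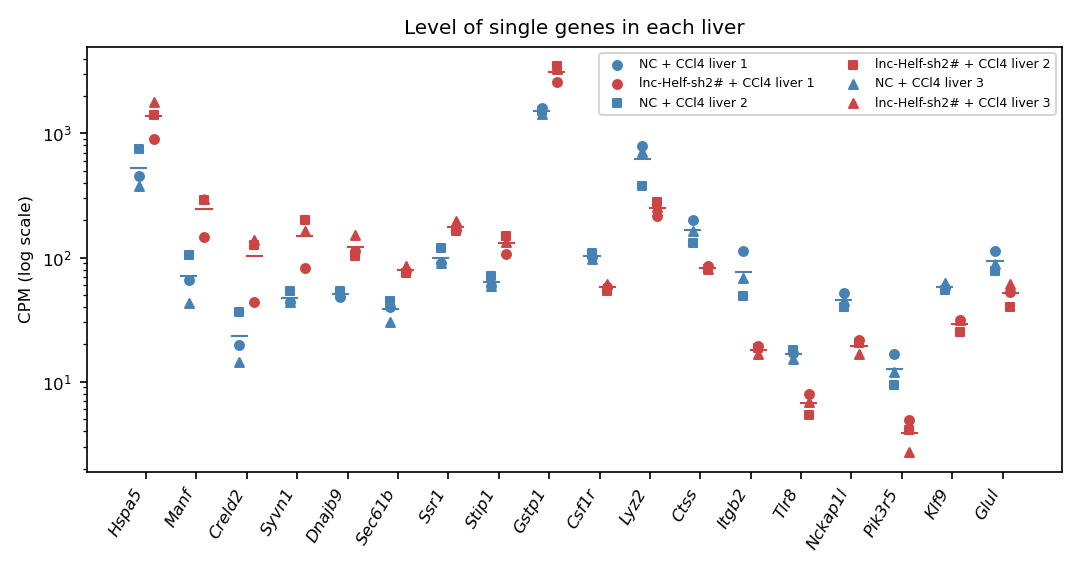
CPM (log axis) of 18 genes in each liver, with circles, squares and triangles for livers 1, 2 and 3 of a group, blue for NC + CCl4, red for lnc-Helf-sh2# + CCl4 and a bar at each group mean. Within a gene, all red points lie on 1 side of all blue points, which was largely fixed by showing only genes that had passed in these livers. Over all genes 16.1% lay below and 16.8% above in this way. Heights of different genes are not comparable because CPM is not corrected for length.

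The promoters of 3 of these genes are shown because they carry the ER stress response element, a sequence bound by ATF6 with NF-Y. The motif searched was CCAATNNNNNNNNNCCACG, on both strands, from 250 bases before to 50 bases after the annotated start (RefSeq, GRCm38.p6), and it is printed in capitals.
Hspa5, chr2:34771840-34772139, plus strand: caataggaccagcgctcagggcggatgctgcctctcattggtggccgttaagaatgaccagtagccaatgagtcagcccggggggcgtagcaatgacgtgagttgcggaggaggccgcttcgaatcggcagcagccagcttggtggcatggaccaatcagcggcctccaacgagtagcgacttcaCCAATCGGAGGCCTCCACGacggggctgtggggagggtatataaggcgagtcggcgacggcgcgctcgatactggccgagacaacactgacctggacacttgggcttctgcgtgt
Creld2, chr15:88819396-88819695, plus strand: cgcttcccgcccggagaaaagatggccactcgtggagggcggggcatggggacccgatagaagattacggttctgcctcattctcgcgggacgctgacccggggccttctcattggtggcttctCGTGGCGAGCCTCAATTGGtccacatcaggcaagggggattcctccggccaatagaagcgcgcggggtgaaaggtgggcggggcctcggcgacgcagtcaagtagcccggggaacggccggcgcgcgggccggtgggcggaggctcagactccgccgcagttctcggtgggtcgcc
Syvn1, chr19:6046326-6046625, plus strand: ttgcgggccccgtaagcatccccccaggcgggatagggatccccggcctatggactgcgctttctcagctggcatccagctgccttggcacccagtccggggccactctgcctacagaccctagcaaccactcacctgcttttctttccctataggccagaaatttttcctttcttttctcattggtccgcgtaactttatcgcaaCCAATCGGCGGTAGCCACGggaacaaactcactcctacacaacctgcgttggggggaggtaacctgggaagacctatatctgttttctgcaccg
The motif starts at -65 in Hspa5, at -126 in Creld2, where it reads on the opposite strand, and at -44 in Syvn1. It was found in 37 of the 27025 RefSeq promoters (0.137%), in 19 of the 10317 genes tested that had a promoter there (0.184%) and in 9 of the 35 list members with a promoter (25.7%). Among the list members that rose, 14 had a promoter there, and 3 of these (21.4%) held the motif. Carriers of the motif that did not pass were Calr, Canx, Derl3, Dnajc3, Hsp90b1 and Pdia6, with log2 fold changes from 0.20 for Canx to 0.79 for Calr. A match describes the letters only, and the share of a list with the motif does not depend on these livers. The share among list members that rose (21.4%) was not above that of the whole list (25.7%). In the 37 promoters of the secretory transport list, 0 matches were found.

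Genes of the machinery that takes new proteins into the ER and on to the Golgi were higher with shRNA2#. Of 48 members of the ER translocation and secretory transport list, 22 rose and 0 fell, beside 4.71% and 3.89% of all genes. The median log2 fold change of the list was 0.53. Srprb, a subunit of the receptor that docks ribosomes to the ER, was measured at 18.6, 17.5 and 14.1 CPM in control and 31.2, 38.97 and 37.7 CPM in shRNA2# livers, with a log2 fold change of 1.10 (SE 0.15, adjusted p = 0.0201). Sec61b, a subunit of the protein-conducting channel, was measured at 40.1, 44.9 and 30.3 against 77.3, 74.7 and 85.2 CPM, with a log2 fold change of 1.04 (SE 0.17, adjusted p = 0.0208). The groups stood apart in both genes. Ssr1, a subunit of the translocon-associated TRAP complex, rose by 0.82 and Krtcap2, a subunit of the oligosaccharyltransferase, by 0.89 on the log2 scale (adjusted p = 0.0217 and 0.0216). Tfg, which helps form the vesicles that leave the ER, lies in no list and was among the 10 smallest p-values of the genes that were higher: 49.96, 53.6 and 54.7 against 87.5, 84.2 and 90.6 CPM, with a log2 fold change of 0.73 (SE 0.09, adjusted p = 0.0193). Sar1b, with the highest FPKM of the list, had a log2 fold change of 0.13 at an adjusted p of 0.591. All 3 shRNA2# livers lay above all controls in 35 of the 48 genes, beside 16.8% of all genes. The list's mean log2 level was 0.47, 0.40 and 0.66 in the shRNA2# livers against -0.02, 0.16 and -0.15 in the controls. Without shRNA2# liver 3 the number that rose was 7, with only the 6 compared livers in the fit it was 17, and the median lay between 0.40 and 0.61 whichever liver was left out.

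Chaperones of the cytosol and genes of ribosome assembly were higher too, the former mainly in shRNA2# livers 2 and 3. Over all genes 4.71% rose and 3.89% fell. Of 27 cytosolic heat shock and chaperonin genes, 8 rose and 0 fell, with a median of 0.50. Stip1, which links HSP70 to HSP90, was measured at 59.2, 71.6 and 59.3 against 107, 148 and 134 CPM, with a log2 fold change of 1.03 (SE 0.14, adjusted p = 0.0201). For Hsp90aa1, the inducible HSP90, the levels were 137, 185 and 124 against 217, 434 and 348 CPM, with a log2 fold change of 1.16 (SE 0.24, adjusted p = 0.0309). In both genes shRNA2# liver 1 was the lowest of its group, and the list's mean log2 level was 0.17, 0.92 and 0.90 in shRNA2# livers 1, 2 and 3, with 2 genes that rose once liver 3 was left out and 5 with only the 6 compared livers in the fit. Of 29 ribosome biogenesis genes, 9 rose and 0 fell, among them Nop58 (1.25) and Nop2 (1.01), which act in ribosomal RNA modification, and Rrp9 (0.94) on the log2 scale. Nop58 was measured at 14.9, 13.2 and 13.7 against 33.8, 46.4 and 19.3 CPM, with shRNA2# liver 3 nearest to the controls, and only 1 gene of this list passed without NC + CCl4 liver 2 or with only the 6 compared livers in the fit. Proteasome subunits moved less: 7 of 31 rose and 0 fell, with a median of 0.32, and Psmc5, an ATPase of the regulatory particle, was measured at 49.7, 45.03 and 39.3 against 66.9, 70.8 and 70.6 CPM, with a log2 fold change of 0.64 (SE 0.11, adjusted p = 0.024). Psmb5 and Psmb6, catalytic subunits of the core particle, rose by 0.60 and 0.63 on the log2 scale, and the list had 1 call without shRNA2# liver 3 and 2 with only the 6 compared livers in the fit.

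Nuclear genes of oxidative phosphorylation were all on the higher side. Of 75 members tested, 26 rose, 0 fell and 75 had a positive log2 fold change, with a median of 0.49. Over all genes 4.71% rose and 3.89% fell. Cox7c, a subunit of cytochrome c oxidase, was measured at 176, 153 and 139 against 257, 241 and 270.1 CPM, with a log2 fold change of 0.72 (SE 0.14, adjusted p = 0.0268). Ndufv3, of complex I, was measured at 56.5, 49.7 and 54 against 78.4, 80.2 and 89.8 CPM, with a log2 fold change of 0.63 (SE 0.12, adjusted p = 0.0251). Atp5b, the catalytic subunit of ATP synthase and the list's highest member by FPKM, had a log2 fold change of 0.17 at an adjusted p of 0.487. The mean log2 level of the list was 0.23, 0.53 and 0.65 in shRNA2# livers 1, 2 and 3, and without shRNA2# liver 3 or NC + CCl4 liver 2 it had 0 calls and with only the 6 compared livers in the fit 10, although the median stayed between 0.37 and 0.59 whichever liver was left out. Cytosolic ribosomal protein genes gave a smaller median of 0.32: 6 of 78 rose, 0 fell and 76 were on the positive side (1 rose with only the 6 compared livers in the fit), and Rpl27 was measured at 124, 113 and 99.1 against 164, 202 and 171 CPM, with a log2 fold change of 0.68 (SE 0.14, adjusted p = 0.0284). Ribosomal protein genes have many near-identical copies in the genome, and reads of Rps6 (2.70, 2.07 and 2.69 against 7.06, 5.59 and 4.16 CPM, 1.17 on the log2 scale) may be split among them.

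The difference between the groups followed transcript length. Among genes matched to a coding transcript (12846 genes, 98.37%), the shortest quartile (216 to 2006 bases) had a median log2 fold change of 0.23, with 311 genes that rose and 51 that fell. The longest quartile (4653 to 123179 bases) had a median of -0.19, with 40 that rose and 254 that fell. All 3 shRNA2# livers showed it, with a median of 0.15, 0.24 and 0.21 for the shortest quartile and -0.16, -0.21 and -0.20 for the longest relative to the control mean. Control liver 1 leaned the same way (0.08 and -0.07) and control liver 3 the other way (-0.06 and 0.06). The medians by quartile of GC content ran from -0.04 to 0.06. Oxidative phosphorylation genes (median length 908 bases) and ribosomal protein genes (925 bases) are short beside all genes tested (3133 bases). The lists of ER chaperones (2539), secretory transport (2641) and leukocyte actin regulators (3111) lie nearer to that length.

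After the trend with length was taken out of each library, an alternative chosen after seeing the data, 147 genes were called, 41 higher and 106 lower. At the adjusted p alone, 282 of the 12846 genes rose and 224 fell in that fit, so list counts after the correction stand beside these lower numbers. The medians became 0.18 for oxidative phosphorylation, with 3 members that rose, and close to 0 for ribosomal proteins, with 0 that rose and 1 that fell, Rps27. In the ER chaperone list the median was 0.56 with 10 members that rose, in secretory transport 0.46 with 12, in cytosolic chaperones 0.40 with 7, in ribosome biogenesis 0.47 with 4 and in the proteasome 0.18 with 1. Among lists described below, the corrected median was -1.135 for monocyte and macrophage markers, -0.72 for Kupffer cell markers and -1.02 for leukocyte actin regulators. It was -0.82 for Toll-like receptors, -1.07 for Fc receptors and -0.66 for leukocyte integrins, beside 0.013 over all genes. Of the 167 named genes that passed, 99 also passed after this correction. Among the named genes described here, those that did not pass after it were Xbp1, Sdf2l1, Atf4, Psmb5, Psmb6, Rpl27, Rps6, Cox7c, Itgam, Syk, Ccr2, C3ar1, C5ar1, Mmp9, Csf3r, Clec4d, Pik3cg, Pik3cb, Foxo1, Ptbp3, Id2, Mmp2, Pdgfra, Fbln1, Fbln2, Col6a5, Hapln1, Skil, Tgfbr3, Cyp2c38, Cyp2c39, Gstp1, Abcc3, Slco1a4, Angptl8, Pnpla3, Ebp, Ptges3, Jund, Muc16, Ly6d, Gapdh, Alad, Gjb2 and Slc7a2.

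**Figure D3:**
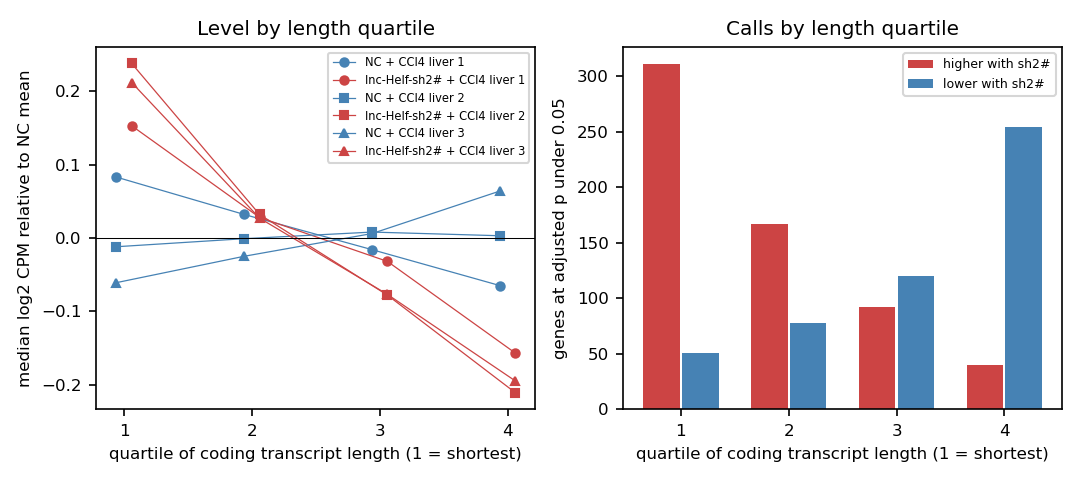
Left, median log2 CPM of genes in each quartile of coding transcript length (1 is the shortest) relative to the control mean, for the 3 NC + CCl4 livers (blue) and 3 lnc-Helf-sh2# + CCl4 livers (red). Right, number of genes past an adjusted p of 0.05 in each quartile, which goes from 311 higher and 51 lower in the shortest to 40 higher and 254 lower in the longest.

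Genes of monocytes and macrophages were lower with shRNA2#. Csf1r, the receptor that macrophages need for survival, was measured at 101, 109 and 97.03 CPM in the control livers and 57.8, 54.2 and 61.3 CPM in the shRNA2# livers, and fell with a log2 fold change of -0.82 (SE 0.13, adjusted p = 0.0201). Each group was tight, with no overlap. Lyz2, lysozyme of myeloid cells, was measured at 789, 379.5 and 701 against 217, 281 and 256 CPM, with a log2 fold change of -1.31 (SE 0.27, adjusted p = 0.0303), and control liver 2 stood closest to the shRNA2# livers. Of the 22 monocyte and macrophage markers, 8 fell and 0 rose, beside 3.89% and 4.71% of all genes, with a median of -0.87. After the length correction 6 fell, with a median of -1.135, and without shRNA2# liver 3 the number was 2, with a median of -0.85. Ccr2, the receptor that brings monocytes out of the marrow, was among the 8 that fell (21.1, 17.1 and 11.7 against 8.87, 6.56 and 5.54 CPM, -1.25 on the log2 scale). Its call was lost after the length correction (adjusted p = 0.066). The summed CPM of the 22 markers overlapped between the groups (2545, 1808 and 2152 against 2307, 1325 and 1235), but a sum follows its most abundant members. The mean log2 level of the 22 did not overlap, at 0.306, -0.139 and -0.167 in the controls against -0.635, -0.906 and -1.207. Spp1, osteopontin, the cholangiocyte marker with the highest FPKM, was measured at 406, 253 and 338 against 1233, 369 and 375 CPM.

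The same direction held for a list of leukocyte genes named after actin regulators. The list also holds other leukocyte genes, such as Laptm5, Cd53 and the phosphatase gene Inpp5d. Of its 32 members, 12 fell and 0 rose, beside 3.89% and 4.71% of all genes. All 32 were on the negative side, and all shRNA2# livers lay below all controls in 26, beside 16.1% of all genes. The median was -0.998, and the mean log2 level was -0.76, -0.84 and -1.21 in the shRNA2# livers against 0.27, -0.08 and -0.18 in the controls. Nckap1l, the blood-cell subunit of the WAVE complex, was measured at 52.2, 40.05 and 44.3 against 21.6, 20.4 and 16.6 CPM, with a log2 fold change of -1.22 (SE 0.21, adjusted p = 0.0216). Laptm5, a lysosomal membrane protein of blood cells, was measured at 117, 91.9 and 99.7 against 45.2, 43.4 and 40.3 CPM, with a log2 fold change of -1.26 (SE 0.25, adjusted p = 0.0275). Cd53, a tetraspanin of leukocytes, was measured at 48.4, 27.7 and 37.4 against 19.5, 17.5 and 13.4 CPM, with control liver 2 the lowest control (-1.17 on the log2 scale). After the length correction 10 members fell, without shRNA2# liver 3 the number was 3, with only the 6 compared livers in the fit it was 12, and the median stayed between -1.10 and -0.85 whichever liver was left out.

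Receptors and adaptors of innate sensing were lower as well. The lists of myeloid genes share some members. Of 22 Toll-like receptor genes and adaptors, 7 fell and 1 rose (Ticam1, 0.55 on the log2 scale), with a median of -0.83. Over all genes 3.89% fell and 4.71% rose. Tlr8, a receptor for RNA in endosomes, was measured at 16.96, 17.98 and 15.3 against 8.03, 5.40 and 6.86 CPM, with a log2 fold change of -1.31 (SE 0.17, adjusted p = 0.0201). It had the second smallest p on the lower side. Tlr7 was measured at 9.22, 9.52 and 10 against 4.57, 3.28 and 4.16 CPM and Tlr4, the receptor for lipopolysaccharide, at 14.5, 12.7 and 14.3 against 6.58, 5.40 and 7.42 CPM, and their log2 fold changes were -1.26 and -1.10 (adjusted p = 0.0205 and 0.0216). After the length correction 6 members of this list fell. In the Fc receptor and ITAM adaptor list, 7 of 21 fell and 0 rose, and 4 fell after the length correction. Tyrobp, the adaptor DAP12, was measured at 52.8, 36.6 and 44.2 against 30.5, 27.1 and 19.3 CPM, -0.79 on the log2 scale. Fcgr3, an activating receptor for IgG, was measured at 40.5, 24.98 and 41.8 against 18.8, 16.8 and 15.4 CPM, with a log2 fold change of -1.07 (SE 0.18, adjusted p = 0.0216). Syk, the kinase that acts behind these receptors, was measured at 34.99, 23.5 and 26.5 against 13.2, 15.2 and 10.1 CPM and fell with a log2 fold change of -1.14 (SE 0.27, adjusted p = 0.0386), a call lost after the length correction (adjusted p = 0.0619).

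Adhesion genes were lower, while few chemokine genes passed. Of 18 leukocyte integrins and adhesion genes, 7 fell and 0 rose, 3 fell after the length correction and 0 passed without shRNA2# liver 3. Itgb2, the beta chain shared by the leukocyte integrins, was measured at 113, 49.3 and 68.5 CPM in the controls against 19.3, 18.6 and 16.6 CPM. Control liver 1 was far above the other controls, the shRNA2# livers were within 3 CPM of each other, and the gene fell with a log2 fold change of -2.08 (SE 0.43, adjusted p = 0.0305). Its partner Itgam, CD11b, was measured at 94.8, 18.1 and 49.03 against 9.77, 8.68 and 11.4 CPM, with a log2 fold change of -2.44 (SE 0.62, adjusted p = 0.0442). Cd44, a receptor for hyaluronan, was measured at 49.6, 41.6 and 44.6 against 23.2, 19.5 and 19.2 CPM, with a log2 fold change of -1.13 (SE 0.24, adjusted p = 0.0309). Of 14 chemokine receptors 3 fell, and of 20 chemokines 1, a share near that of all genes (3.89%). With only the 6 compared livers in the fit these numbers were 1 and 3. The chemokine was Ccl6 (169.6, 43.6 and 118 against 27.9, 29.4 and 29.9 CPM, -1.93 on the log2 scale). Ccl2, the ligand of CCR2, had a log2 fold change of -0.76 at an adjusted p of 0.119, Il1b of -1.03 at an adjusted p of 0.197 and Tnf of -2.01 at an adjusted p of 0.08, and none of these passed.

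Pik3r5 encodes the regulatory subunit of the PI3K isoform of leukocytes that is driven by chemokine receptors. It was measured at 16.7, 9.35 and 11.9 CPM in the control livers and 4.92, 4.05 and 2.70 CPM in the shRNA2# livers, without overlap, and fell with a log2 fold change of -1.70 (SE 0.36, adjusted p = 0.0338). Pik3cg, its catalytic partner, was measured at 6.93, 6.39 and 3.89 against 2.49, 1.93 and 1.80 CPM, with a log2 fold change of -1.46 (SE 0.39, adjusted p = 0.049), and was at 0.0777 after the length correction. All 5 members of the leukocyte PI3K list were on the negative side, and 2 fell, of which Pik3r5 also passed after the length correction. Of 24 genes of the PI3K-AKT core, which most cells use, 5 fell and 0 rose, with a median of -0.19, and 2 fell after the length correction. Over all genes 3.89% fell and 4.71% rose. Inpp5d, the phosphatase SHIP1 of blood cells, was measured at 21.02, 14.8 and 16.5 against 8.17, 8.23 and 5.89 CPM, with a log2 fold change of -1.23 (SE 0.22, adjusted p = 0.0249). Tsc1, an inhibitor of mTORC1, was measured at 26.4, 25.5 and 26.97 against 16.1, 17.3 and 17.2 CPM, with a log2 fold change of -0.64 (SE 0.10, adjusted p = 0.0201). Foxo1 fell by 0.67 and Pik3cb fell by 0.52 on the log2 scale, and both lost the call after the length correction (adjusted p = 0.096 and 0.107). Akt2 had the highest FPKM of the list and a log2 fold change of 0.18 at an adjusted p of 0.278. Ptbp1, a splicing and RNA-binding protein, had a log2 fold change of 0.14 at an adjusted p of 0.358, and its relative Ptbp3 was measured at 110.3, 124 and 122 against 86.8, 67.1 and 81.6 CPM, with a log2 fold change of -0.60 (SE 0.13, adjusted p = 0.0327), a call lost after the length correction (adjusted p = 0.0637).

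Resident Kupffer cell markers were lower in most cases but did not pass singly. Of 14 members, 0 rose and 0 fell, 12 were on the negative side, and the median was -0.54. After the length correction 3 fell, and with only the 6 compared livers in the fit 5 fell. Clec4f, found only in Kupffer cells of the mouse, was measured at 39.9, 52.3 and 41.2 against 40.4, 40.96 and 44.2 CPM, with a log2 fold change of -0.09 at an adjusted p of 0.658. Adgre1, which encodes F4/80 of tissue macrophages, was measured at 55.8, 71.03 and 29.5 against 14.6, 11.5 and 14.4 CPM, with a log2 fold change of -1.95 (SE 0.54, adjusted p = 0.0527), and C1qb at 111, 110.5 and 92.9 against 65.2, 71.8 and 66.7 CPM, with a log2 fold change of -0.63 at an adjusted p of 0.0576. The level of Clec4f thus overlapped between the groups, while Adgre1 and C1qb did not overlap and missed the threshold. Summed Kupffer markers were 866, 968 and 738 CPM in control and 589.7, 623 and 638 CPM in shRNA2# livers.

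Other leukocyte lists had negative medians and few calls, beside 3.89% of all genes that fell and 4.71% that rose. Of 11 neutrophil markers 3 fell (0 with only the 6 compared livers in the fit), Mmp9, Csf3r and Ngp, and 1 of the 11 fell after the length correction, while Lcn2, which hepatocytes also make in the acute phase, was measured at 917, 643 and 163 against 549.6, 489 and 1403 CPM. Of 11 T and NK cell markers, 6 B and plasma cell markers and 9 dendritic cell markers tested, 0 passed in either direction, with medians of -1.07, -0.86 and -0.94. In the MHC class II list 2 of 13 fell, H2-DMa and the protease gene Ctss, with a median of -1.25. Ctss was measured at 202, 132 and 163 against 85.7, 81.02 and 80.9 CPM and fell by 1.004 on the log2 scale (SE 0.17, adjusted p = 0.0205). Cd74, the invariant chain, was measured at 413, 237 and 126 against 80.8, 114 and 105 CPM, with a log2 fold change of -1.38 at an adjusted p of 0.127. Guanylate-binding protein genes, which interferon gamma induces, had a median of -1.26 with 2 of 16 that fell, and its mean log2 level was 0.70, 0.34 and -1.04 in control livers 1, 2 and 3 against -0.79, -1.31 and -1.28 in the shRNA2# livers. Control liver 3 thus lay among the shRNA2# livers. Among transcription factors of blood cells 5 of 19 fell and 1 rose, and 2 fell after the length correction. The gene that rose was Id2, an inhibitor of helix-loop-helix factors that many cells use (37.2, 41.95 and 46.6 against 74.8, 50.4 and 61.3 CPM, 0.57 on the log2 scale). Zeb2 was measured at 33.3, 30.6 and 36 against 18.98, 17.2 and 14.7 CPM, with a log2 fold change of -0.97 (SE 0.15, adjusted p = 0.0201). Of 30 lysosome and phagocytosis genes 5 fell and 0 rose, among them Psap, prosaposin (1270, 849 and 1266 against 684, 669 and 689 CPM, -0.73 on the log2 scale), and Mertk, the receptor for engulfing dead cells (-0.79).

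Some complement receptor and eicosanoid genes were lower. Over all genes 3.89% fell and 4.71% rose. Of 11 complement receptor and C1q genes 3 fell and 0 rose, the third being Itgam. C3ar1, the receptor for the complement fragment C3a, was measured at 48.7, 22.7 and 43.03 against 20.02, 14.8 and 12.1 CPM, with a log2 fold change of -1.28 (SE 0.29, adjusted p = 0.0361). C5ar1, the receptor for C5a, was measured at 6.87, 2.97 and 5.49 against 1.73, 1.42 and 2.15 CPM, with a log2 fold change of -1.53 (SE 0.39, adjusted p = 0.0442). In both genes control liver 2 was the lowest control and lay near the highest shRNA2# liver. Both lost their calls after the length correction (adjusted p = 0.0504 and 0.0523). Of 20 arachidonate and prostanoid genes 4 fell and 1 rose. Pla2g7, which inactivates platelet-activating factor and is made by macrophages, was measured at 48.5, 26.2 and 31.3 against 18.6, 18.8 and 14.97 CPM, with a log2 fold change of -1.02 (SE 0.26, adjusted p = 0.0449). Ptgis, prostacyclin synthase, was measured at 11.7, 9.69 and 20.97 against 5.40, 5.66 and 7.62 CPM, -1.18 on the log2 scale. The gene that rose was Ptges3, also known as the HSP90 cochaperone p23 (69.1, 72.5 and 66.5 against 85.3, 108 and 95.3 CPM, 0.47 on the log2 scale).

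**Figure D4:**
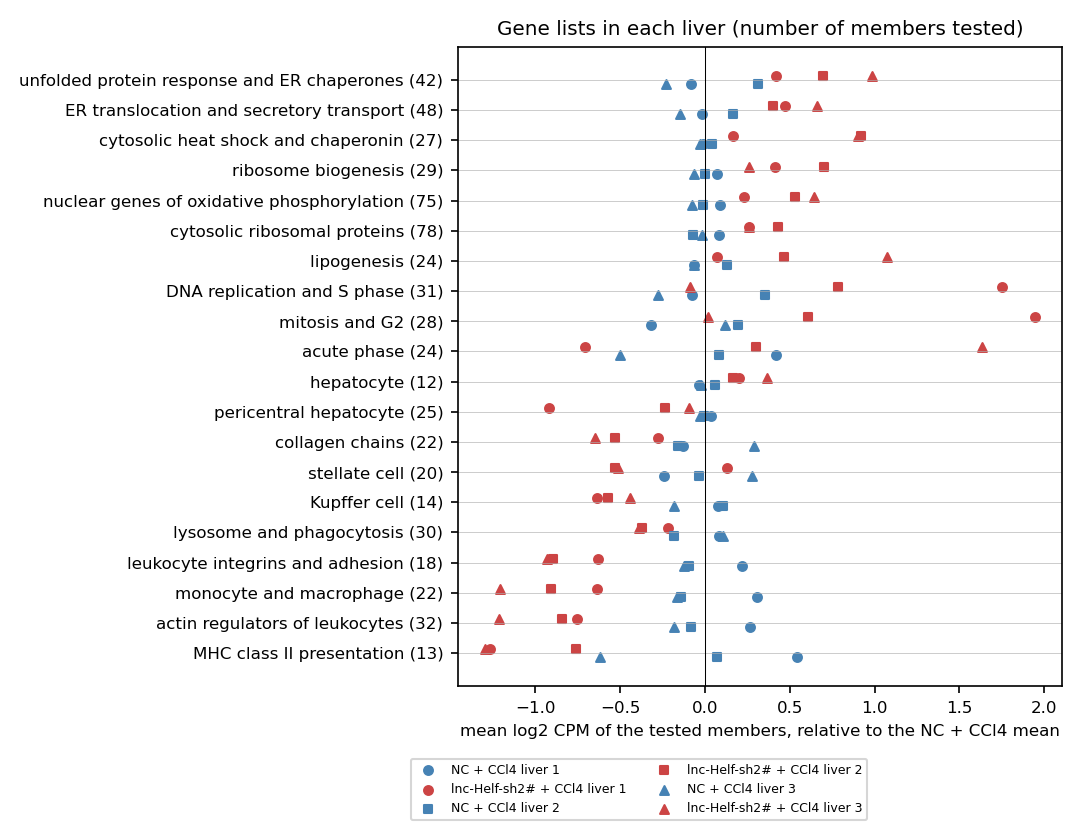
Mean log2 CPM of the tested members of 20 gene lists relative to the control mean (x axis) in each of the 3 NC + CCl4 livers (blue) and 3 lnc-Helf-sh2# + CCl4 livers (red), with marker shapes for livers 1, 2 and 3. The list of leukocyte actin regulators lies at -0.76 to -1.21 in the red points and at -0.18 to 0.27 in the blue, while mitosis genes run from 0.02 to 1.94 within the red group alone.

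Genes of fibrosis were mixed. Acta2, which encodes α-SMA of activated stellate cells, was measured at 7.63, 2.75 and 8.00 against 6.79, 2.89 and 3.05 CPM, with a log2 fold change of -0.53 at an adjusted p of 0.476. Col1a1, a chain of the main scar collagen, was measured at 159.6, 106 and 229 against 229, 169 and 87.2 CPM, with a log2 fold change of -0.03 at an adjusted p of 0.972. In both genes the groups overlapped. Mmp2, a gelatinase, was measured at 22.5, 29.97 and 46.5 against 16.4, 14.7 and 16.8 CPM and fell with a log2 fold change of -1.05 (SE 0.28, adjusted p = 0.0483), and Tgfb1, the main profibrotic cytokine, at 31.6, 26.2 and 30.6 against 23.1, 18.6 and 14.6 CPM, with a log2 fold change of -0.65 (SE 0.17, adjusted p = 0.0481). Timp1, an inhibitor of matrix proteases, had a log2 fold change of -0.67 at an adjusted p of 0.333. Of 20 stellate cell markers 2 fell, beside 3.89% of all genes, and 0 with only the 6 compared livers in the fit. Dcn, decorin, was measured at 287, 333 and 454 against 229.9, 208 and 210. CPM, with a log2 fold change of -0.73 (SE 0.17, adjusted p = 0.0392), and Pdgfra at 19.6, 27.6 and 40.6 against 13.6, 14.4 and 17.2 CPM, -0.96 on the log2 scale. Lrat and Des, which mark stellate cells, had log2 fold changes of -0.35 and -0.05 and did not pass. The median of the stellate list was -0.33, with shRNA2# liver 1 at 0.13 and livers 2 and 3 at -0.53 and -0.51.

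Few matrix genes passed in edgeR, and Fndc1 had the lowest log2 fold change of all genes named here. Fndc1, a matrix protein with fibronectin repeats, was measured at 8.51, 4.65 and 14.2 against 1.25, 1.42 and 1.52 CPM, with a log2 fold change of -2.70 (SE 0.41, adjusted p = 0.0201). Fbln1 and Fbln2, the fibulins of elastic and basement membrane matrix, had log2 fold changes of -1.69 and -1.54 (adjusted p = 0.0435 and 0.0459), with control liver 2 the lowest control in all 3 genes. Hapln1, which links hyaluronan to proteoglycans, rose from 0.763, 3.02 and 0.743 to 7.13, 8.17 and 7.28 CPM, with a log2 fold change of 2.31 (SE 0.61, adjusted p = 0.0481). Over all genes 3.89% fell and 4.71% rose. Of 39 matrix proteins other than collagens 5 fell and 1 rose (2 and 0 after the length correction, 1 and 1 with only the 6 compared livers in the fit), with a median of -0.49. Of 22 collagen chains 1 fell, Col6a5 (-1.55), a share near that of all genes, with a median of -0.52. Among 27 TGF-beta ligands, receptors and SMADs, 3 fell (0 with only the 6 compared livers in the fit), Tgfb1, Skil and Tgfbr3, and Inhba, the activin A chain, rose from 1.88, 2.86 and 2.80 to 6.09, 6.75 and 5.06 CPM, with a log2 fold change of 1.25 (SE 0.28, adjusted p = 0.0369).

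In the lists of hepatocyte zones, few genes passed: 2 of 25 pericentral genes fell and 1 rose, and 0 of 25 periportal genes passed, beside 3.89% of all genes that fell and 4.71% that rose. Glul, glutamine synthetase of the last hepatocytes before the vein, was measured at 113, 78.1 and 88.4 against 52.7, 40.1 and 61.3 CPM, with a log2 fold change of -0.86 (SE 0.21, adjusted p = 0.0411). Cyp2c37 was measured at 131, 136 and 222 against 35.3, 66.4 and 75.6 CPM, with a log2 fold change of -1.46 (SE 0.30, adjusted p = 0.0309), and Cyp2c38 and Cyp2c39, which share much sequence with it and may share reads, had log2 fold changes of -1.70 and -1.76 (adjusted p = 0.0449 and 0.0484). Cyp2e1, the main enzyme that activates CCl4, was measured at 5506, 4477 and 5361 against 2276, 3792 and 3798 CPM, and its log2 fold change of -0.64 at an adjusted p of 0.11 did not pass. shRNA2# liver 1 was the lowest liver for Cyp2e1 and Cyp2c37, and its mean over the 25 pericentral genes was -0.92 against -0.23 and -0.09 in livers 2 and 3. The pericentral gene that rose was Slc1a4, an amino acid transporter (0.87 on the log2 scale).

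Few genes of detoxification and bile acid handling passed. Of 29 glutathione transferases and Nrf2 targets 1 rose and 0 fell, and of 25 bile acid and organic anion transport genes 3 fell and 0 rose, beside 4.71% and 3.89% of all genes. Gstp1, a glutathione transferase, was measured at 1604, 1504 and 1427 against 2607, 3463 and 3276 CPM and rose with a log2 fold change of 1.04 (SE 0.23, adjusted p = 0.0361). Cyp8b1, the sterol 12-alpha-hydroxylase that sets the type of bile acid, was measured at 232, 254 and 144 against 60.2, 88.99 and 94.95 CPM, with a log2 fold change of -1.37 (SE 0.30, adjusted p = 0.0355). Abcc3, an exporter at the blood side of the hepatocyte, was measured at 258, 232 and 235 against 121, 133 and 150.1 CPM, with a log2 fold change of -0.84 (SE 0.21, adjusted p = 0.0423). Slco1a4, an uptake transporter for organic anions, fell by 0.87 on the log2 scale (adjusted p = 0.0437). Gstp1, Abcc3 and Slco1a4 lost their calls after the length correction (adjusted p = 0.0603, 0.0683 and 0.0684). Outside these lists, Upp2, a uridine phosphorylase of liver, was measured at 425, 479 and 456 against 228, 167 and 246 CPM, with a log2 fold change of -1.09 (SE 0.20, adjusted p = 0.0253), and Retsat, a retinol saturase, at 400.1, 335 and 479 against 272, 228 and 243 CPM, with a log2 fold change of -0.71 (SE 0.16, adjusted p = 0.0369). Of 12 hepatocyte markers 0 passed, with a median of 0.36.

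The 3 shRNA2# livers differed from each other along a second axis. On the 500 most variable genes, the first principal component (41.5% of the variance) placed the controls at -23.3, -13.5 and -9.82 and the shRNA2# livers at 15.2, 16.3 and 15.2. The second (27.6%) spread the shRNA2# livers from 22.5 in liver 1 through -0.25 in liver 2 to -21.5 in liver 3, while the controls lay between -5.88 and 4.97.

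**Figure D5:**
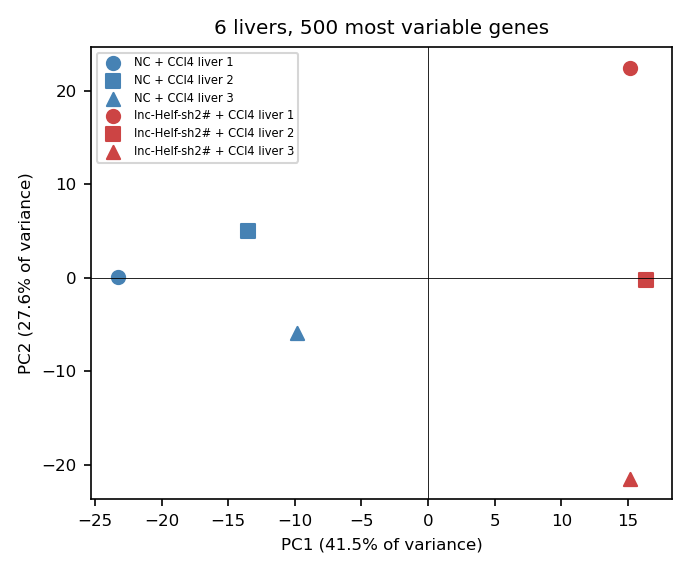
First and second principal components of the log2 CPM of the 500 most variable genes in the 6 livers, with blue for NC + CCl4, red for lnc-Helf-sh2# + CCl4 and shapes for livers 1, 2 and 3. The groups part on the first axis, at -9.82 or below against 15.2 or above, and the shRNA2# livers spread over the second.

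Cell cycle genes were high in shRNA2# liver 1. Mki67, a marker of dividing cells, was measured at 12.7, 19.4 and 21.6 CPM in the controls and 61.3, 23.8 and 11.02 CPM in the shRNA2# livers, and Cdk1, the kinase of mitosis, at 4.29, 5.26 and 5.20 against 23.96, 9.13 and 5.06 CPM. Livers of the 2 groups overlapped in both genes. Over 28 mitosis genes the log2 level was 1.94, 0.60 and 0.02 in shRNA2# livers 1, 2 and 3, and over 31 S phase genes 1.75, 0.79 and -0.09. With 0 of the 28 and 1 of the 31 past the threshold, the median log2 fold changes were 1.10 and 0.99, and liver 3 lay at the level of the controls. The S phase gene that rose was Tyms, thymidylate synthase, whose 3 shRNA2# livers were close. It was measured at 15.3, 12.9 and 10.5 against 24.2, 26.6 and 25.8 CPM, with a log2 fold change of 0.98 (SE 0.22, adjusted p = 0.0367). Ccnd1, cyclin D1, was measured at 42.3, 37.8 and 28.1 against 180.2, 55.2 and 54.5 CPM, with a log2 fold change of 1.42 at an adjusted p of 0.0657, and Pcna at 37.04, 33.05 and 25.2 against 86.02, 45.2 and 32.6 CPM. Rbl2, a pocket protein that holds cells in the resting state, was lower in all 3 livers alike, at 42.7, 46.7 and 50.1 against 27.8, 21.03 and 26.1 CPM, with a log2 fold change of -0.90 (SE 0.12, adjusted p = 0.0201).

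Acute phase and lipogenesis genes as lists were highest in shRNA2# liver 3. Saa1, serum amyloid A, was measured at 126, 95.8 and 12.9 CPM in the controls and 19.4, 175 and 2328 CPM in the shRNA2# livers, and the log2 level of 24 acute phase genes was -0.71, 0.30 and 1.63 in shRNA2# livers 1, 2 and 3. Fasn, fatty acid synthase, was measured at 118, 142 and 89.9 against 105, 294 and 651 CPM, with a log2 fold change of 1.58 at an adjusted p of 0.0739. Livers 1, 2 and 3 thus stood in the same order for both lists, with 24 lipogenesis genes at 0.07, 0.46 and 1.07. Angptl8, induced by feeding, and Pnpla3, a lipase of lipid droplets, were the 2 lipogenesis genes that rose, both highest in shRNA2# liver 2. Without shRNA2# liver 1 the number was 7, and after the length correction or with only the 6 compared livers in the fit it was 0. Angptl8 was measured at 17.5, 30.4 and 49.3 against 106, 157 and 64.5 CPM, with a log2 fold change of 1.75 (SE 0.47, adjusted p = 0.0484). Pnpla3 was measured at 0.235, 0.560 and 0.514 against 0.762, 5.08 and 3.05 CPM, with a log2 fold change of 2.74 (SE 0.74, adjusted p = 0.0489), a level near the filter on low counts. Of 25 cholesterol synthesis genes 1 rose, Ebp (0.71), beside 4.71% of all genes. Of 33 fatty acid oxidation genes 0 passed, and their log2 level was -0.004, -0.59 and -0.75 in shRNA2# livers 1, 2 and 3.

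Several of the most even changes lay in genes of no list. Mis12, a kinetochore protein, had the smallest p of all genes. It was measured at 10.7, 11.03 and 10.9 CPM in the controls and 21.8, 23.4 and 21.4 CPM in the shRNA2# livers, with a log2 fold change of 1.03 (SE 0.11, adjusted p = 0.0193). Ung, the uracil-DNA glycosylase, was measured at 4.81, 4.65 and 4.86 against 14.4, 13.8 and 10.5 CPM, with a log2 fold change of 1.43 (SE 0.17, adjusted p = 0.0193). Zfp9, a zinc finger gene, was measured at 2.35, 1.90 and 2.06 against 7.06, 9.77 and 7.69 CPM, with a log2 fold change of 1.96 (SE 0.23, adjusted p = 0.0193). Within each group the 3 livers were close in Mis12 and Ung. Tubb4b, a beta-tubulin, was measured at 62.4, 63.97 and 48.97 against 129, 131 and 101 CPM, with a log2 fold change of 1.04 (SE 0.14, adjusted p = 0.0201), and Gapdh, a glycolytic enzyme often used as a reference, at 1685, 1549 and 1653 against 2427, 2469 and 2655 CPM, with a log2 fold change of 0.63 (SE 0.17, adjusted p = 0.0481). The call of Gapdh was lost after the length correction (adjusted p = 0.107).

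On the lower side the smallest p-value belonged to Klf9, a transcription factor induced by glucocorticoid and thyroid hormone. Klf9 was measured at 57.2, 54.95 and 61.8 CPM in the controls and 31.2, 25.01 and 31.5 CPM in the shRNA2# livers, with a log2 fold change of -0.99 (SE 0.11, adjusted p = 0.0193). Sgk1, another glucocorticoid-induced gene, was measured at 36.9, 38.9 and 31.03 against 21.6, 19.2 and 22.2 CPM, with a log2 fold change of -0.76 (SE 0.14, adjusted p = 0.0227), and Cry2, a repressor of the circadian clock, at 34.4, 33.8 and 36.1 against 22.9, 23.98 and 23.5 CPM, with a log2 fold change of -0.57 (SE 0.09, adjusted p = 0.0201). The livers of each group were close in all 3 genes. Tcp11l2 was measured at 22.2, 18.9 and 20.7 against 9.07, 5.27 and 8.46 CPM, with a log2 fold change of -1.44 (SE 0.20, adjusted p = 0.0201), and Pik3ip1, an inhibitor of PI3K, at 2.35, 1.68 and 2.80 against 0.831, 0.514 and 0.554 CPM, with a log2 fold change of -1.84 (SE 0.35, adjusted p = 0.0253). Of 24 immediate early and glucocorticoid-responsive genes 2 fell and 1 rose, Jund, and of 17 clock genes 1 fell. Over all genes 3.89% fell and 4.71% rose. Eif4b, a translation initiation factor, was measured at 269.8, 246 and 309.6 against 182, 166 and 158 CPM, with a log2 fold change of -0.71 (SE 0.14, adjusted p = 0.0303), while 4 of the other 33 genes of translation initiation and elongation rose.

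Further large fold changes were found in both directions. Ly6d, a surface protein of the Ly6 family, was measured at 43.3, 42.1 and 27.3 CPM in the controls and 238, 77.3 and 84 CPM in the shRNA2# livers, with a log2 fold change of 1.82 (SE 0.40, adjusted p = 0.0351), and shRNA2# liver 1 was far above the rest. Cyp21a1, the steroid 21-hydroxylase, was measured at 4.40, 3.42 and 4.34 against 8.24, 22.6 and 9.84 CPM, with a log2 fold change of 1.74 (SE 0.36, adjusted p = 0.0305), and shRNA2# liver 2 stood apart. On the lower side, Clec4d, a lectin of myeloid cells, was measured at 15.6, 2.69 and 11.4 against 2.29, 2.44 and 2.22 CPM, with a log2 fold change of -2.09 (SE 0.55, adjusted p = 0.0474). Itm2a was measured at 5.52, 6.27 and 11.9 against 1.59, 1.35 and 3.33 CPM, with a log2 fold change of -1.92 (SE 0.39, adjusted p = 0.0288), and Muc16, a mucin of mesothelium, at 10.5, 8.91 and 27.5 against 3.25, 2.96 and 7.14 CPM, with a log2 fold change of -1.81 (SE 0.47, adjusted p = 0.0452). In Itm2a and Muc16, control liver 3 was the highest by far. Muc16, Ly6d and Clec4d lost their calls after the length correction.

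Other abundant genes passed the threshold as well. Aes, a corepressor, was measured at 414, 372 and 394 against 580.2, 688 and 681 CPM, with a log2 fold change of 0.72 (SE 0.14, adjusted p = 0.0268). Alad, the enzyme of the second step of heme synthesis, was measured at 309, 292 and 337 against 496, 574 and 473 CPM, with a log2 fold change of 0.72 (SE 0.18, adjusted p = 0.0442), and Gjb2, connexin 26 of hepatocyte gap junctions, at 242, 257 and 221 against 288, 467 and 555 CPM, with a log2 fold change of 0.87 (SE 0.22, adjusted p = 0.045). Serp1, which protects new proteins in a stressed ER, was measured at 226, 320.2 and 197 against 361, 396 and 529.7 CPM, with a log2 fold change of 0.79 (SE 0.20, adjusted p = 0.045). In Gjb2 and Serp1 the groups came close, in the first through shRNA2# liver 1 and in the second through control liver 2. Slc7a2, the arginine transporter of hepatocytes, was measured at 416, 343 and 458 against 239, 194 and 247 CPM, with a log2 fold change of -0.84 (SE 0.16, adjusted p = 0.0262). Gabarapl1, an autophagy protein of the ATG8 family, was measured at 237, 208 and 256 against 136, 114 and 134 CPM, with a log2 fold change of -0.86 (SE 0.14, adjusted p = 0.0202). Fnip2, a partner of folliculin in nutrient sensing, was less abundant and among the 10 smallest p-values of the lower side, at 43.1, 36.6 and 48.1 against 23.1, 20.6 and 21.9 CPM, with a log2 fold change of -0.96 (SE 0.14, adjusted p = 0.0201). Both were even within each group.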

How the data were processed

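Liver RNA of 3 mice per group was sequenced, and samples were grouped by the labels. The authors deposited a table of estimated (expected) counts, FPKM and TPM for each gene, made with RSEM. The deposited expected counts carry no scaling, and 8.154% hold a fraction of a read. FPKM, scaled by the authors to depth and transcript length, gave the levels per length and 2 alternative tests, and the deposited TPM were not used. The submitters' notes list the tools BWA, Bowtie2 and RSEM, give no version, and name the human build hg19 although the genes are those of the mouse. In 22 rows a symbol turned into a date was restored.

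Counts were rounded and tested with edgeR 4.0.16 under R 4.3.3, by its quasi-likelihood test in the older form, with TMM factors of 0.882 to 1.07, filterByExpr at a minimum count of 10 and Benjamini-Hochberg adjustment. All 9 libraries entered the filter, the scaling and a single fit without covariates. The lnc-Helf-sh1# + CCl4 livers thus helped to estimate the spread (biological coefficient of variation 19.9%), and the contrast used the other groups only. Nothing in the sources says whether mice shared a batch. Alternatives used DESeq2 1.42.0, limma 3.58.1 on log2 FPKM, other scaling factors, filters and libraries, and the count tests were first tested on simulated data. A newer form of the quasi-likelihood estimate and a correction for transcript length were chosen after seeing the data.

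Gene lists were described by counts and medians, with no set test. The named genes were those that the study names, up to 4 called members per list by adjusted p with its most abundant member by FPKM, the 15 highest and 15 lowest fold changes among called genes with at least 20 scaled counts and no overlap, the 10 smallest p-values and the 10 most abundant called genes in each direction. Asns, Calr, Canx, Cdk1, Ddit3, Des, Fasn, Lrat, Saa1 and Ticam1, and members listed only as calls, fall outside it and were chosen after their values were seen. The comparison, lists and rule were set with earlier results of these data known.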

Additional observations from a re-analysis of the deposited data

How the results depend on the processing

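Of 289 genes called (75 higher, 214 lower), 277 to 301 were called with other scaling factors, with other low-count filters or with the newer form of the quasi-likelihood estimate, and 198 with only the 6 libraries compared, of which 164 were among the 289. DESeq2 called 524 (127 higher, 397 lower), with 1095 higher and 989 lower at its adjusted p alone. The transcript length correction left 147 (41 and 106), of which 128 were among the 289, with 282 and 224 at the adjusted p alone. limma on log2(FPKM + 1) called 118 (15 and 103), with 140 and 834 at the adjusted p alone, and on log2(FPKM + 0.1) 342 (28 and 314), with 142 and 795. On the FPKM scales the median over all genes shifted by -0.118 and -0.162, and 12.7% and 8.2% of calls were higher, beside 26.0% on counts. A fold change above 1.5 gave 780 calls (371 and 409), 47.6% of them higher. With only the 6 libraries, 228 genes were higher and 272 lower at the adjusted p alone.

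With the replicate block edgeR called 0 genes (0 higher and 0 lower, also at the adjusted p alone, whose lowest value was 0.0516), while 708 had an unadjusted p under 0.05 and a fold change above 2, beside 762 without it. Same-numbered livers had deviations correlated at -0.123, -0.159 and -0.006, so the numbers were not taken as pairs. Leaving out each liver gave 0 to 484 calls, 0 to 153 higher and 0 to 331 lower, and at the adjusted p alone 0 to 916 higher and 0 to 750 lower. The count of 0 came without NC + CCl4 liver 1 or 3 or lnc-Helf-sh2# + CCl4 liver 2. Livers of the lnc-Helf-sh1# group enter the low-count filter, the scaling and the estimate of spread, but not the contrast. They moved the calls from 68 without their liver 2 to 413 without their liver 3. The cause of these shifts was not tested. No named gene that passed changed sign under any alternative run, which was largely fixed in advance because these genes had passed in the same livers. The older form of the quasi-likelihood estimate listed among the alternatives is the one used throughout. Depths of 14265875 to 16816431 counts leave genes below about 1 CPM with few reads.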

Other observations

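Further groups of genes were looked at after the values were seen. Of 48 genes of N-glycan and sugar nucleotide synthesis tested, 15 rose and 0 fell in edgeR, beside 4.71% and 3.89% of all genes, with a median log2 fold change of 0.39, and 9 members belong to another list described above. All 3 lnc-Helf-sh2# + CCl4 livers lay above all controls in 26 of the 48, beside 16.8% of all genes. Since the list was put together with these values in view, its counts only describe it. Alg2, a mannosyltransferase that builds the lipid-linked glycan, was measured at 11.3, 9.63 and 11.3 CPM in the control livers and at 21.6, 24.1 and 20.6 CPM in the shRNA2# livers. The livers of each group were close, with a log2 fold change of 1.04 (SE 0.11, adjusted p = 0.0193). Gmppb, which makes GDP-mannose, was measured at 8.22, 9.91 and 5.31 against 15.4, 18.9 and 25.6 CPM, with a log2 fold change of 1.35 (SE 0.26, adjusted p = 0.0269). Subunits of the oligosaccharyltransferase that rose were Krtcap2, Ostc, Ddost, Dad1, Rpn1 and Stt3b. After the length correction 9 members rose and 0 fell.

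Of 42 autophagy genes tested, 3 fell and 0 rose, Gabarapl1, Fnip1 and Fnip2, with a median log2 fold change of -0.12 beside 0.005 over all genes. The share that fell is near the 3.89% of all genes that did. The same number fell after the length correction.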
